A study of Mus musculus with 75 samples.

Results

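CTCF-poor megabase windows are stretches of 1 Mb that hold 4 or fewer summits of the CTCF peaks called in asynchronous cells. They were chosen by that measured count alone, after each autosome was divided into windows of 1 Mb from 3 Mb to its last peak. Of 2424 windows on the 19 autosomes, 731 qualified (30.2%), and these hold 1247 of the 32280 autosomal asynchronous CTCF peaks (3.86%). CTCF counts per window therefore describe the choice and are no finding. The domains, boundaries, loops and stripes of the Hi-C lists were not used to choose the windows.

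The cells were uninduced G1E-ER4, a subline of the GATA1-null proerythroblast line G1E from strain 129 mice, and every group shares that genotype. They were arrested with nocodazole (200 ng/ml, 7 to 8.5 h), released, fixed and sorted as pro-metaphase (0 min), ana/telophase (25 min), early G1 (60 min), mid G1 (120 min) and late G1 (240 min after release). In situ Hi-C, which reads contacts between all parts of the genome, had 2 replicates per stage. Chromatin immunoprecipitation with sequencing (ChIP-seq) was done for CTCF with 13 samples, 3 from pro-metaphase and 2 from every other stage. For the cohesin subunit Rad21 it was done with 12 samples, 2 from every stage, and for both proteins the stages include asynchronous cells. The line is 1 cell type in culture, so values from it describe that line.

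CTCF is a DNA-binding protein that stops the ring-shaped cohesin complex as cohesin extrudes chromatin into a loop. Where CTCF holds cohesin at both ends, Hi-C shows a focal loop. Where cohesin keeps reeling in chromatin from a fixed end, it shows a stripe, and stretches with more contact inside than across their ends are called domains. In mitosis most of this folding is lost and CTCF leaves most of its sites, and both return as cells enter G1.

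Each deposited list pools the replicates of its stage. There is no spread between replicates, no difference given here has a replicate test, and read depth behind the lists is unknown. Counts at different stages can therefore also differ by depth. Intervals after shares are exact 95% binomial intervals, and those after medians are 95% order-statistic intervals. Both cover counting error only, and neighbouring features are not independent. The domain lists leave out chromosome ends: no domain starts before 5.16 Mb, and 26 CTCF-poor and 57 other windows lie wholly outside their span. Positions are in build mm9, counted from 1. No annotation of that build was used here, so no gene is named.

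The number of qualifying windows was 206 with 0 summits, 158 with 1, 137 with 2, 105 with 3 and 125 with 4. Just outside the limit stood 116 windows with 5 summits, and the median over all windows was 10. CTCF-poor windows lay next to each other: they formed 331 runs, 167 of them a single window. The 93 runs of 3 or more windows held 422 windows (57.7%). Their share of a chromosome was lowest on chromosome 11 at 15.1% (18 of 119 windows) and chromosome 19 at 15.3% (9 of 59). It was highest on chromosome 4 at 39.9% (61 of 153) and chromosome 14 at 39.3% (48 of 122). The longest run was 17 windows on chr4:63000001-80000000, with 24 asynchronous CTCF summits in 17 Mb. The next were 11 windows on chr7:39000001-50000000, and 9 each on chr5:55000001-64000000, chr12:61000001-70000000 and chr14:88000001-97000000.

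These windows held domain boundaries throughout the time course but almost no loops. In late G1 they held 2707 boundaries (3.70 per window) and 218 loops (0.298 per window), against 6.04 boundaries and 6.48 loops per window elsewhere. Other windows thus had 1.63 times as many boundaries but 21.7 times as many loops. Of the late-G1 loops elsewhere 63.5% had CTCF at both anchors and 26.6% at 1. The number of loops in windows chosen for few CTCF peaks is therefore tied to the rule. A late-G1 boundary without any late-G1 loop was found in 501 CTCF-poor windows (68.5%) and in 209 of the 1693 other windows (12.3%). In 52 CTCF-poor windows no domain, boundary, loop or stripe was called at any stage, against 4 other windows, and 22 had no entry in any of the lists. How well reads can be placed in the windows was not tested, for these or for the counts below.

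**Figure D1:**
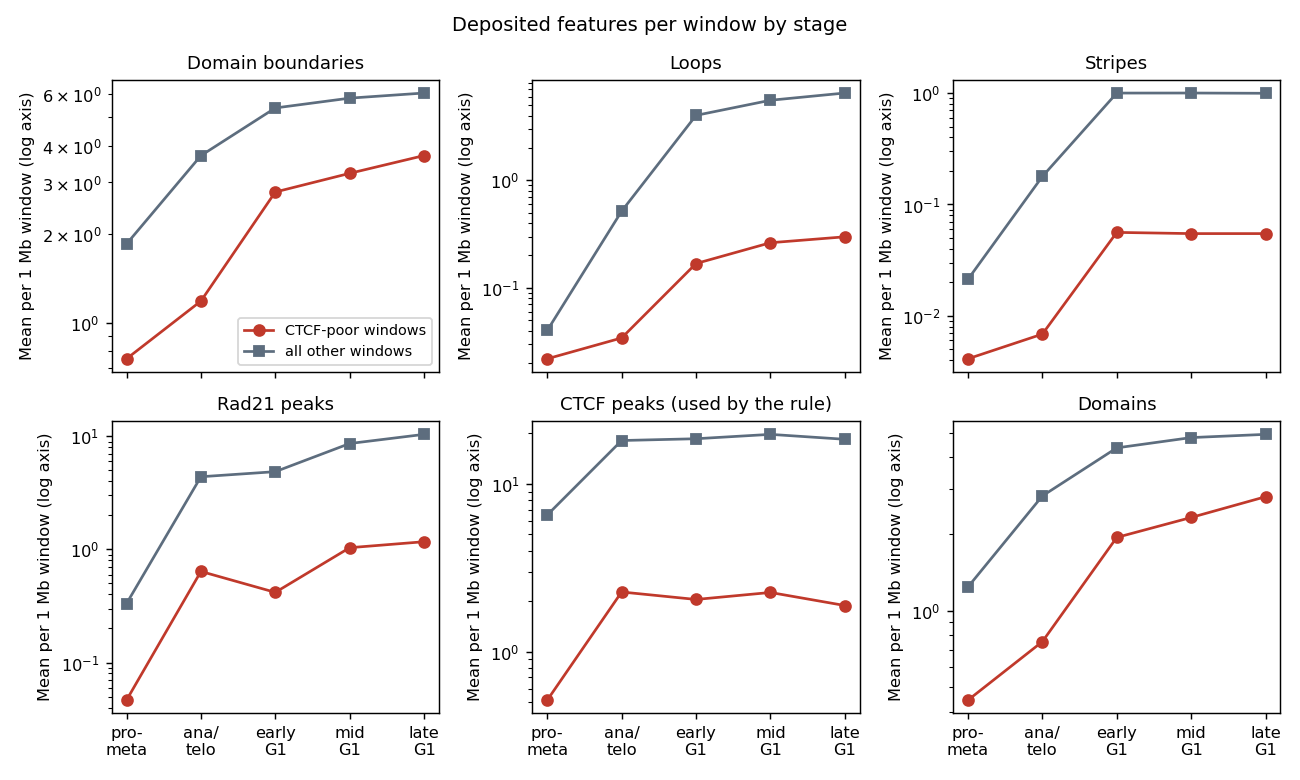
Mean number of deposited features per 1 Mb window (log axis, a different range in each panel) at the 5 stages, for the 731 CTCF-poor windows (red circles) and the 1693 other windows (grey squares); the pooled lists give no error bars. The gap for boundaries is 2.46 times in pro-metaphase, widens to 3.12 times in ana/telophase and narrows to 1.63 times in late G1, and it is 21.7 times for loops in late G1. Rad21 in the CTCF-poor windows goes from 467 peaks in ana/telophase to 305 in early G1, a fall not seen with −log10 q of at least 5 (253 to 267).

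Boundary counts rose later in the CTCF-poor windows than elsewhere. A boundary is a distinct start or end of a domain. From pro-metaphase to late G1 the CTCF-poor windows held 552, 867, 2035, 2355 and 2707 boundaries, and the other windows 3138, 6265, 9099, 9824 and 10226. Their number grew 3.12-fold from ana/telophase to late G1 in the CTCF-poor windows and 1.63-fold elsewhere. The largest step came between ana/telophase and early G1 in the CTCF-poor windows (2.35-fold) and between pro-metaphase and ana/telophase in the others (2.00-fold). A boundary was present at all 5 stages in 120 CTCF-poor windows (16.4%) and in 944 others (55.8%). None was called at any stage in 62 (8.48%) and in 68 (4.02%).

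Inside the set the late-G1 count went with the number of CTCF summits, and the pro-metaphase count did not. Windows with 0, 1, 2, 3 and 4 summits held 2.68, 3.09, 4.04, 4.43 and 5.18 late-G1 boundaries each, and those with 5 summits held 5.34. In pro-metaphase the same windows held 0.767, 0.658, 0.796, 0.800 and 0.776, with 0.793 at 5 summits, and showed no order. Windows without any asynchronous CTCF summit still had a late-G1 boundary in 141 of 206 cases (68.4%).

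**Figure D2:**
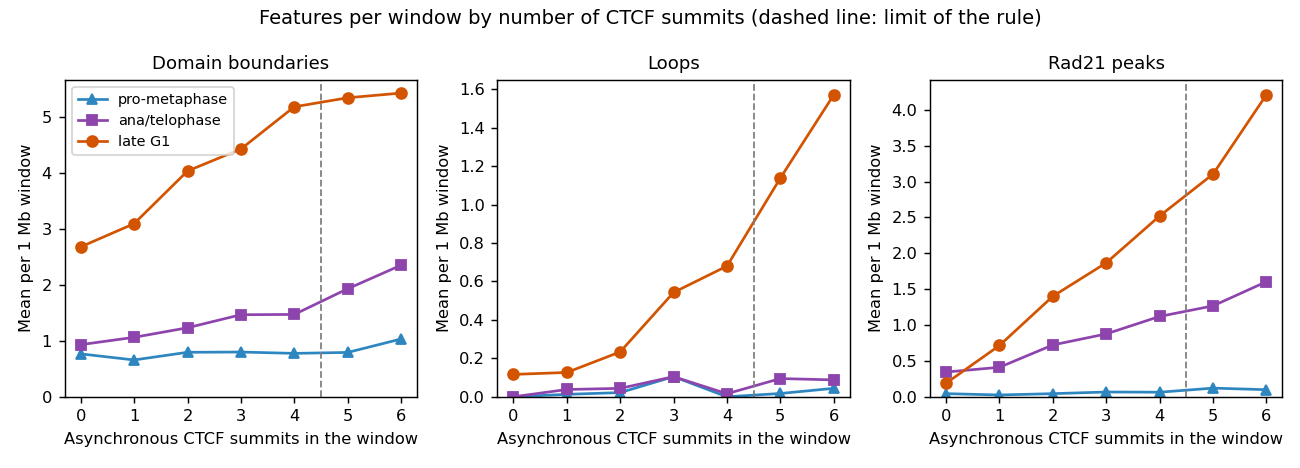
Mean number of boundaries, loops and Rad21 peaks per 1 Mb window (linear axes from 0) against the number of asynchronous CTCF summits in the window, for pro-metaphase (triangles), ana/telophase (squares) and late G1 (circles). The dashed line marks the limit of 4 summits; late-G1 boundaries go from 2.68 at 0 summits to 5.18 at 4, while the pro-metaphase line stays between 0.658 and 0.800.

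The proteins were close to few of these boundaries. A CTCF peak of the same stage lay within 20 kb of 592 of 2707 late-G1 boundaries in CTCF-poor windows (21.9%, 20.3 to 23.5), against 65.5% in the other windows and 56.3% of all autosomal boundaries. The rule leaves few CTCF peaks there to be near, so this share is a description. Neither CTCF nor Rad21 was within 20 kb of 2086 (77.1%), against 34.0% elsewhere. In pro-metaphase that held for 534 of 552 (96.7%), against 61.0% elsewhere, so there most boundaries of both sets lacked both proteins. None of the 552 had both proteins near, and 2.55% did elsewhere. The rule bears on these shares too.

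Boundaries of CTCF-poor windows were called late and held less well from stage to stage. Late-G1 boundaries were traced back to the earliest stage with a boundary within 20 kb. In CTCF-poor windows 652 of 2707 had been called by ana/telophase (24.1%, 22.5 to 25.7) and 1375 by early G1 (50.8%, 48.9 to 52.7). In the other windows these shares were 54.9% and 80.7%, and over all autosomal boundaries 48.4% and 74.5%. Boundaries first called in late G1 itself made up the remaining 948 in CTCF-poor windows, after 64.98% called by mid G1. The share called by ana/telophase followed the number of summits: 19.6% at 0, 18.8% at 1, 23.5% at 2, 28.2% at 3 and 29.5% at 4, then 31.9% at 5 and 67.9% in windows of 20 or more. From 0 to 5 summits the intervals of neighbouring numbers overlapped each time, while those at 0 (16.3 to 23.1) and at 4 (26.0 to 33.1) did not. Ana/telophase boundaries came to 1.19 per CTCF-poor window and 3.70 elsewhere, and a denser list matches more often by position alone. The part of that in these shares, and in those of the next paragraph, was not tested.

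Boundaries with and without a protein nearby were both called later than their counterparts elsewhere. In CTCF-poor windows 185 of 592 late-G1 boundaries with CTCF within 20 kb had been called by ana/telophase (31.2%, 27.5 to 35.2), and 61.0% of such boundaries elsewhere. With neither protein nearby the shares were 22.0% (20.2 to 23.8) and 43.1%. By early G1 the CTCF-poor windows reached 67.6% with CTCF nearby and 45.8% with neither, against 87.0% and 68.7% elsewhere. In the 236 CTCF-poor windows whose neighbours on both sides were also CTCF-poor, 146 of 715 had been called by ana/telophase (20.4%, 17.5 to 23.6).

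Followed forward, early boundaries of these windows were found again less often. Of 552 pro-metaphase boundaries 206 had a late-G1 boundary within 20 kb (37.3%, 33.3 to 41.5), against 55.0% elsewhere and 52.4% of all. Of 867 in ana/telophase 443 did (51.1%, 47.7 to 54.5), against 71.8% elsewhere and 69.3% of all. Even of 2355 boundaries in mid G1, 1289 were found in late G1 (54.7%), against 83.1% elsewhere. Lists with more boundaries per Mb also match more often by position alone, and the part of that in these shares was not tested.

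**Figure D3:**
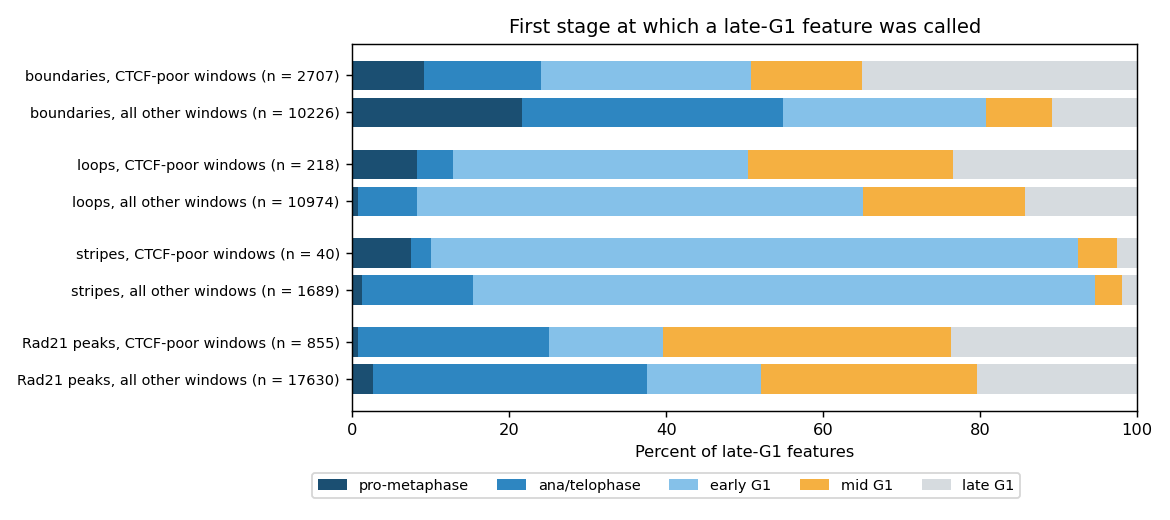
Share of late-G1 boundaries, loops, stripes and Rad21 peaks (percent, n in each label) by the earliest stage at which a matching feature was called, in CTCF-poor and in all other windows. For boundaries 24.1% of the CTCF-poor bar is filled by ana/telophase, against 54.9% of the bar of the other windows; for stripes the bars reach 92.5% and 94.6% by early G1.

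Domains covered little of the CTCF-poor windows early on and were small. The mean share of a window inside any domain was 10.8%, 19.4%, 46.1%, 57.4% and 64.5% from pro-metaphase to late G1, against 27.6%, 57.9%, 81.6%, 87.4% and 88.6% elsewhere. No part of 393 CTCF-poor windows was inside a domain in ana/telophase (53.8%), and in late G1 this was still so for 113 (15.5%), against 79 others (4.67%). Within the covered stretches the density was closer: 5.74 late-G1 boundaries per covered Mb, against 6.82 elsewhere. In pro-metaphase it was 6.97 against 6.73, so that there the lower count went with the lower cover.

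Domain size had an uneven distribution. The median size of all domains with their midpoint in a CTCF-poor window was 210, 220, 260, 280 and 290 kb by stage, against 240, 300, 360, 380 and 390 kb elsewhere. The smallest domain in every list was 160 kb, so the early medians lie close to the floor of the calls. For outermost domains, those inside no larger domain, the medians were 210, 220, 230, 280 and 330 kb (late G1: 270 to 410), and 240, 300, 420, 490 and 500 kb elsewhere. The long tail went the other way. Domains over 1000 kb made up 428 of 2048 late-G1 domains in CTCF-poor windows (20.9%, 19.2 to 22.7) and 9.59% elsewhere, and among outermost domains 31.3% (28.1 to 34.6) and 19.1%. In windows of 5 to 9 summits they made up 13.7% (12.2 to 15.2) of all domains and 26.8% (23.3 to 30.5) of outermost ones, and the interval for outermost domains overlaps that of the CTCF-poor windows.

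Long domains were rarer in the interior of runs. Where both neighbours were CTCF-poor, the late-G1 median was 210 kb (200 to 220) with 11.1% of domains over 1000 kb, and in the remaining CTCF-poor windows it was 330 kb (310 to 370) with 23.7%. The interval of the interior share (8.39 to 14.35) holds the 9.59% of windows that are not CTCF-poor. Among outermost domains the interior share was 16.3% (11.8 to 21.7), and this interval holds their 19.1%. The higher share of long domains was thus not seen in the interior of runs. By summit number the median was 210 kb at 0 summits and 390 kb at 4, with 350 kb at 5. The longest outermost late-G1 domain lay on chr3:116640001-120820000 (4180 kb), with 7 domains and 10 asynchronous CTCF summits inside. The next lay on chr12:66270001-70220000 (3950 kb, 9 domains and 7 summits inside) and on chr17:59050001-62930000 (3880 kb, 7 domains and 6 summits inside). Each of these 3 had both ends called by early G1. On chromosomes 3 and 12 the downstream end was already called in pro-metaphase, and the upstream end was not called before early G1.

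**Figure D4:**
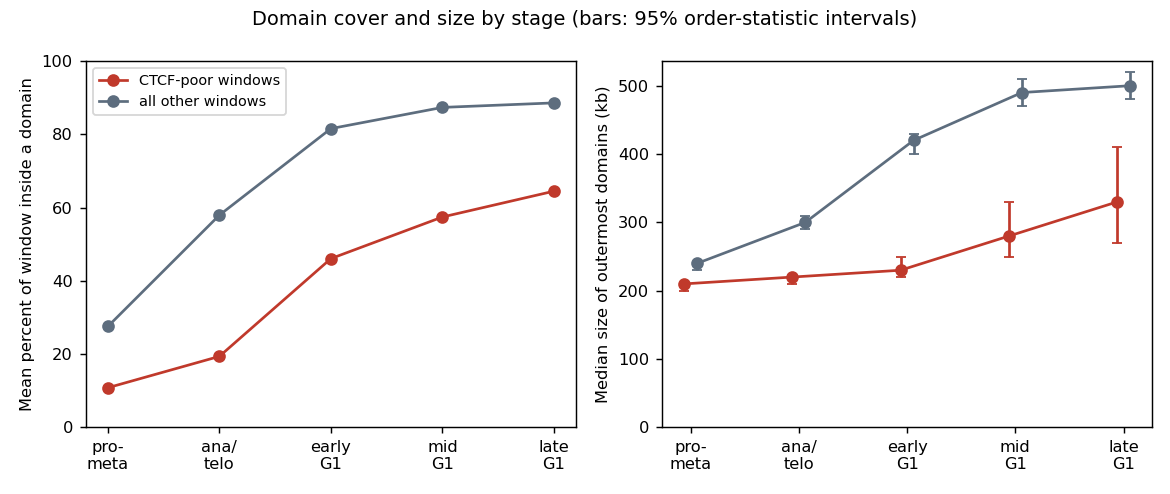
Left, mean percent of a 1 Mb window inside any domain by stage; right, median size in kb of outermost domains with 95% order-statistic intervals. Red is the 731 CTCF-poor windows and grey the 1693 others. Cover in the CTCF-poor windows goes from 10.8% to 64.5%, and their outermost median from 210 to 330 kb, below the other windows at each of the 5 stages.

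Loops were rare and gathered in few windows. The CTCF-poor windows held 16, 25, 123, 192 and 218 loops from pro-metaphase to late G1, and the other windows 68, 874, 6801, 9399 and 10974. The other windows had 1.83 times as many per window in pro-metaphase, 15.1 times as many in ana/telophase and 23.9 times as many in early G1. Of the 731 CTCF-poor windows 105 held a late-G1 loop (14.4%, 11.9 to 17.1), against 86.9% of the others. The 10 windows with most held 65 of the 218 (29.8%). In the interior of runs, 31 loops came to 0.131 per window, in 16 of 236 windows. Windows with 0 to 4 summits held 0.117, 0.127, 0.234, 0.543 and 0.680 late-G1 loops each, and those with 5 held 1.14. The rule bears on these loop counts too.

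The most late-G1 loops were in chr12:116000001-117000000, with 10. It held 6 loops already in pro-metaphase and ana/telophase, 13 in early G1 and 11 in mid G1, while no late-G1 Rad21 peak was called in it. Next came chr19:35000001-36000000, with 1, 0, 4, 9 and 9 loops by stage and 5 late-G1 Rad21 peaks. The third was chr2:78000001-79000000, with 0, 0, 5, 5 and 7 loops and 5 late-G1 Rad21 peaks. The window on chromosome 12 thus held loops in mitosis and more in G1, while those on chromosomes 19 and 2 held 1 and 0 before early G1.

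Late-G1 loops of CTCF-poor windows differed by what lay at their anchors. CTCF was at both anchors of 82 (37.6%), at 1 anchor of 68 (31.2%) and at neither of 68 (31.2%, 25.1 to 37.8). In the other windows 9.88% had none, and of all autosomal loops 10.3%, and the rule, which leaves few CTCF peaks, bears on this share too. Loops with CTCF at both anchors were long: their median distance was 585 kb (390 to 870) in CTCF-poor windows and 170 kb elsewhere. Loops are placed by midpoint in windows that hold few CTCF peaks, so the rule bears on this length, which is a description. Loops with no CTCF had a median of 130 kb in both (100 to 150 in CTCF-poor windows). Over all late-G1 loops of CTCF-poor windows, the median ratio of observed to expected contact, from the authors' values for each loop, was 4.54 (4.13 to 5.07), against 3.26 elsewhere. Loops of 400 kb and over made up 65 of the 218 (29.8%, 23.8 to 36.4), against 8.60% elsewhere. In windows of 5 to 9 summits they made up 21.7% (18.98 to 24.58), with an interval that overlaps that of the CTCF-poor windows. The rule bears on the share of long loops as well.

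Loops of 200 kb and over with CTCF at both anchors were called late in these windows, and loops without CTCF early. By early G1, 110 of 218 had been called (50.5%, 43.6 to 57.3), against 65.1% elsewhere and 64.8% of all autosomal loops. In windows of 5 to 9 summits, next to the limit, it was 52.3% (48.9 to 55.6), within the interval of the CTCF-poor windows. With CTCF at both anchors, 23 of 82 had been called by early G1 (28.0%, 18.7 to 39.1), against 66.2% elsewhere. Among these, loops of 200 kb and over reached 23.3% (14.2 to 34.7, n = 73) and 54.9% elsewhere. The 9 loops under 200 kb reached 66.7% (29.9 to 92.5), an interval that holds the 74.75% elsewhere. The CTCF-bound loops of 200 kb and over had a median of 740 kb in CTCF-poor windows and 300 kb elsewhere, so size still differed within that class. Loops with no CTCF had been called in 53 of 68 cases (77.9%, 66.2 to 87.1), against 61.3% elsewhere. Those under 200 kb reached 83.7% (70.3 to 92.7), against 63.95%. Those of 200 kb and over reached 63.2% (38.4 to 83.7, n = 19), against 54.2%, which lies in that interval. The part of loop size in these differences was not tested.

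By ana/telophase, 24 of the 68 loops without CTCF were present (35.3%, 24.1 to 47.8) and 2 of the 82 with CTCF at both anchors (2.44%, 0.297 to 8.53). Over all late-G1 loops of CTCF-poor windows the share was 12.8%, against 8.19% elsewhere and 8.28% of all. Leaving out the chromosome 12 window with most loops gave 16 of 59 (27.1%, 16.4 to 40.3) for those without CTCF, against 11.5% elsewhere. Split by size alone, the shares called by early G1 were 77.4% (58.9 to 90.4) and 73.1% for loops under 100 kb, 66.7% (53.3 to 78.3) and 70.9% for 100 to 190 kb, 51.6% (38.6 to 64.5) and 60.5% for 200 to 390 kb, and 21.5% (12.3 to 33.5) and 36.0% for 400 kb and over. Only in the longest class did the share elsewhere lie outside the interval of the CTCF-poor windows.

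Loops that were called early mostly lasted. Of the 16 pro-metaphase loops of CTCF-poor windows 14 were found again in late G1 (87.5%, 61.7 to 98.5), and of the 25 in ana/telophase 23 were (92.0%, 74.0 to 99.02), against 79.4% and 83.2% elsewhere. The window chr12:116000001-117000000 alone held 6 of the 16 and 6 of the 25, so both shares rest in part on 1 window. Of 192 loops in mid G1, 148 were found in late G1 (77.1%, 70.5 to 82.8), against 89.6% elsewhere. Those of mid G1 thus lasted less often than elsewhere, while the intervals of the mitotic stages hold the values elsewhere.

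The longest and strongest loops carried no CTCF. The longest late-G1 loop joined chr5:22820001-22840000 and chr5:28270001-28290000 over 5450 kb with a ratio of 67.5; it was first called in mid G1, and no CTCF or Rad21 peak overlapped its anchors. The highest ratio, 72.7, belonged to a loop of 3330 kb between chr12:18250001-18270000 and chr12:21580001-21600000. A Rad21 peak, but no CTCF, overlapped its downstream anchor. It had been called since pro-metaphase, with ratios of 4.87, 44.3, 61.8 and 48.0 up to mid G1. A second loop, of 3280 kb and with a ratio of 13.0, lay beside it. The loop of 300 kb between chr12:116400001-116440000 and chr12:116710001-116740000 had a ratio of 38.3 in late G1 and of 31.1 in pro-metaphase, with neither protein at its anchors. This loop lies in the window with most loops.

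Stripes numbered 3, 5, 41, 40 and 40 in the CTCF-poor windows and 36, 302, 1696, 1698 and 1689 elsewhere. Late-G1 stripes came to 0.0547 per CTCF-poor window and 0.998 per other window, in 36 (4.92%) and 56.1% of windows. Their timing was close to that elsewhere: 37 of 40 had been called by early G1 (92.5%, 79.6 to 98.4), against 94.6% elsewhere and 94.6% of all. Their median length was 315 kb (240 to 380), against 310 kb. CTCF lay at the anchor of 27 of 40 (67.5%, 50.9 to 81.4) and at 88.4% of the anchors elsewhere, and 12 had neither protein. Stripes are placed by anchor in windows with few CTCF peaks, so the rule bears on this share too. The strongest, with a deposited strength of 6.49, had its anchor at chr9:115210001-115220000 and was first called in pro-metaphase. Its window held 1, 1, 0, 0 and 1 stripes by stage, so it was not called throughout. The next strongest, with 5.06, had its anchor at chr2:23410001-23420000 and was first called in early G1, and neither carried CTCF or Rad21.

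CTCF was present at every stage in these windows, at low density. Lists by stage held 375, 1656, 1494, 1645 and 1375 CTCF peaks there, beside the 1247 of the asynchronous list that set the rule. A window held at most 5 peaks in pro-metaphase and 21 in ana/telophase. The asynchronous peaks were weaker than elsewhere: their median fold enrichment over background, the authors' value at the summit, was 16.3 against 21.9. Only 138 of 1247 (11.1%) were among the strongest 25% of autosomal peaks, a class that held 25.7% of the peaks elsewhere.

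At matched strength, weak CTCF peaks of these windows were found in mitosis more often than weak peaks elsewhere. A peak counted as found in a stage when a peak of that list overlapped it by 1 bp or more. Of the 1247 asynchronous peaks 361 were found in pro-metaphase (28.9%, 26.4 to 31.5), against 35.2% elsewhere and 34.9% of all. In classes of 25% by fold enrichment, from weakest to strongest, the shares were 9.48% (6.86 to 12.7), 20.3% (16.5 to 24.6), 44.4% (38.6 to 50.4) and 81.2% (73.6 to 87.3). Elsewhere they were 4.03%, 12.8%, 39.5% and 82.2%. Elsewhere at the strengths of the CTCF-poor windows, the share would be 23.7% with 4 classes and 23.1% with classes of 10%. In the weaker 2 classes the intervals did not overlap, and in the stronger 2 they did. Windows of 5 to 9 summits, next to the limit, gave 6.75% (5.20 to 8.58) and 16.2% (13.8 to 18.8) in the weaker 2 classes, and these intervals overlap those of the CTCF-poor windows.

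The choice of overlap turned the pooled comparison. When peaks had to share 50% of both, 22.9% (20.6 to 25.3) were found in pro-metaphase and 21.4% elsewhere. By class this gave 9.48%, 19.8%, 29.5% and 58.7%, against 3.86%, 10.7%, 24.4% and 45.6%. The median asynchronous peak was 266 bp wide in CTCF-poor windows and 310 bp wide elsewhere, and pro-metaphase peaks were 237 and 246 bp wide.

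**Figure D5:**
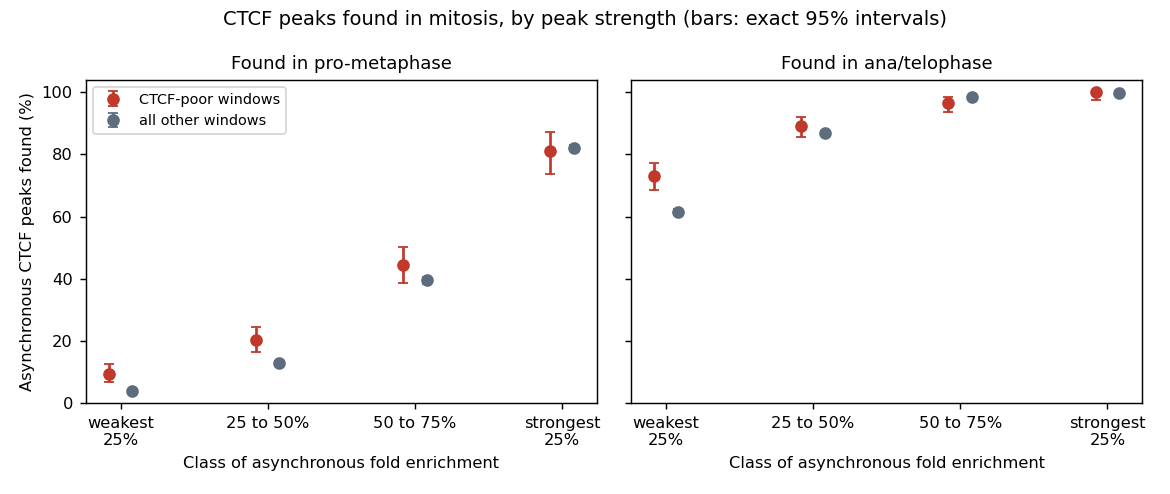
Share of asynchronous CTCF peaks found in pro-metaphase (left) and ana/telophase (right), in percent, by class of 25% of the authors' fold enrichment over all autosomal peaks; bars are exact 95% binomial intervals. In pro-metaphase the CTCF-poor windows (red) go from 9.48% in the weakest class to 81.2% in the strongest and the other windows (grey) from 4.03% to 82.2%.

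By ana/telophase 1079 of the 1247 were found (86.5%, 84.5 to 88.4), against 86.9% elsewhere and 86.9% of all. By class the shares were 73.0% (68.5 to 77.2), 89.0%, 96.5% and 100%, against 61.5%, 86.9%, 98.6% and 99.9%. In early G1 95.0% were found, against 93.5% elsewhere. Of the 1247 peaks 720 (57.7%) were first found in ana/telophase, and 5 (0.401%) were found at none of the 5 stages.

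The strongest asynchronous CTCF peak of these windows was chr2:109744280-109744794, with a fold enrichment of 61.4. It was called at every stage, as was Rad21 on it, with Rad21 folds of 6.02, 15.6, 20.0, 19.4 and 39.4 by stage. The next 4 were chr10:33706440-33707004 (59.2), chr6:106749961-106750527 (57.9), chr15:60988901-60989547 (57.0) and chr7:63297720-63298206 (54.2). All 5 were found in pro-metaphase, and only the first carried Rad21 there. The strongest not found in pro-metaphase were chr6:11234106-11234424 (48.5), chr19:35067429-35068014 (46.9) and chr5:51144007-51144358 (45.1). These 3 were called at the 4 later stages. The one on chromosome 19 lies in the window with the second most late-G1 loops.

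Some CTCF peaks of ana/telophase did not last, and the same held for some of mid G1. Of the 1656 ana/telophase peaks in CTCF-poor windows 577 had no asynchronous peak (34.8%, 32.6 to 37.2), against 11.9% elsewhere and 13.1% of all, a share that the limit on asynchronous peaks raises directly. Of the 1656, 443 were absent from early G1 (26.8%, 24.6 to 28.9), against 11.2% elsewhere. Of 1645 mid-G1 peaks 340 were absent from late G1 (20.7%, 18.7 to 22.7), against 10.3% elsewhere. From early to mid G1 7.50% were lost, against 4.63% elsewhere. The choice of windows by few asynchronous peaks bears on these shares too, which are descriptions. Peaks lost after ana/telophase were weak in both sets. Their median fold was 10.1 against 18.3 for those kept in CTCF-poor windows, and 9.47 against 22.2 elsewhere. Chosen after its values were seen, chr5:113000001-114000000 held 5, 21, 4, 1 and 0 CTCF peaks by stage. Likewise chr9:115000001-116000000 held 0, 15, 7, 5 and 2, and chr6:144000001-145000000 held 5, 14, 3, 3 and 1. Together these 3 windows held 1 Rad21 peak over the 5 stages.

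Rad21 was sparse in these windows, and its number of called peaks was lower in early G1 than in ana/telophase unless weak peaks were left out. They held 34, 467, 305, 757 and 855 Rad21 peaks from pro-metaphase to late G1, and the other windows 562, 7438, 8246, 14628 and 17630. Of all late-G1 Rad21 peaks 95% overlapped a CTCF peak, so their number in windows chosen for few CTCF peaks is tied to the rule. In pro-metaphase 29 of the 34 had no CTCF peak, with a median −log10 q of 0.278, so that these calls were weak. No late-G1 Rad21 peak was called in 301 CTCF-poor windows (41.2%). From ana/telophase to early G1 the count fell to 0.653 times in CTCF-poor windows and rose to 1.11 times elsewhere. With only peaks of −log10 q of at least 5 there was no fall: 253 became 267 in CTCF-poor windows and 6016 became 7807 elsewhere.

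The ana/telophase Rad21 peaks of these windows were of 2 kinds. CTCF overlapped 225 of 467 (48.2%, 43.6 to 52.8), against 89.6% elsewhere and 87.1% of all. The rule leaves few CTCF peaks there to overlap, so the lower share is a description. The 242 without CTCF lay in 177 windows, at most 5 in a window, and were weak, with a median fold of 4.06 and −log10 q of 3.79. Those with CTCF had a median fold of 5.77 and −log10 q of 8.77. Of the 242 without CTCF, 2 were found in early G1 (0.826%). Of the 225 with CTCF 147 were found (65.3%), against 82.1% elsewhere, where 11.8% of those without CTCF were found.

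In early G1 CTCF overlapped 274 of 305 Rad21 peaks (89.8%, 85.9 to 93.0), against 98.9% elsewhere and 98.6% of all. In late G1 it was 727 of 855 (85.03%, 82.5 to 87.4), against 95.5% elsewhere and 95% of all. The rule bears on both of these shares too. The number of Rad21 peaks without CTCF went from 31 to 124 and 128 between early, mid and late G1. Of the 128 in late G1, 55 had a mid-G1 Rad21 peak (43.0%, 34.3 to 52.0), against 29.0% elsewhere. Only 1 had an early-G1 peak (0.781%), against 1.01% elsewhere. In ana/telophase 4 of the 128 had a match (3.125%, 0.858 to 7.81), against 1.51% elsewhere. Few late-G1 peaks without CTCF were thus those of ana/telophase, in these windows as elsewhere.

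Over peaks of all strengths, Rad21 was on a smaller share of CTCF peaks than elsewhere up to mid G1. In late G1 the share was close to that elsewhere. Rad21 was on 1.33%, 13.6%, 18.3%, 38.5% and 52.9% of CTCF peaks by stage, against 3.26%, 21.7%, 25.9%, 42.3% and 53.8% elsewhere, and on 53.8% of all in late G1. In classes of 25% of the late-G1 CTCF fold, from weakest to strongest, the late-G1 shares were 28.5% (24.6 to 32.8), 46.6%, 75.4% and 91.2%, against 17.0%, 39.8%, 69.3% and 87.8%. At matched strength the late-G1 share was thus higher in the CTCF-poor windows, with intervals apart in the weaker 3 classes. In early G1 the shares by class were 3.67%, 12.9%, 30.8% and 55.3%, against 3.13%, 12.1%, 31.5% and 55.2%. Each early-G1 interval of the CTCF-poor windows held the value elsewhere, so the smaller early-G1 share was not seen at matched strength. In mid G1 the shares by class were 14.65%, 34.2%, 60.0% and 80.8%, against 9.22%, 26.9%, 55.1% and 76.2%. The smaller mid-G1 share was thus not seen at matched strength either. In ana/telophase the shares by class were 2.34%, 7.06%, 24.6% and 45.1%, against 3.92%, 9.27%, 21.9% and 49.9%. Of the 855 late-G1 Rad21 peaks 214 had been called by ana/telophase (25.0%, 22.2 to 28.1), against 37.6% elsewhere and 37% of all.

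The windows with most late-G1 Rad21 peaks held 6 each. They were chr3:124000001-125000000, with 0, 0, 1, 5 and 6 by stage, chr5:25000001-26000000, with 0, 3, 3, 5 and 6, and chr12:49000001-50000000, with 0, 0, 2, 4 and 6. The one on chromosome 5 held 5 late-G1 loops but no boundary at any stage, and the other 2 held 1 late-G1 loop each. The strongest late-G1 Rad21 peaks without late-G1 CTCF were chr8:100589336-100589728 (fold 10.3), chr3:21975535-21975811 (9.32) and chr3:125100350-125100716 (9.27). All 3 were also called in mid G1 and not before. The third had a CTCF peak in mid G1, and the second lies in a window without any asynchronous CTCF summit.

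The windows with most late-G1 boundaries held no loop at any stage. They were chr9:81000001-82000000, with 0, 0, 8, 6 and 14 boundaries by stage, chr8:61000001-62000000, with 0, 1, 6, 12 and 13, and chr12:42000001-43000000, with 4, 5, 14, 5 and 13. Their late-G1 Rad21 peaks numbered 2, 3 and 3.

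The long runs differed among themselves. The run of 17 windows on chromosome 4 held 4, 24, 28, 54 and 62 boundaries by stage, 1 late-G1 loop and 19 late-G1 Rad21 peaks. The 11 windows on chromosome 7 held 2, 0, 4, 5 and 4 boundaries and 3 late-G1 loops, with 3 late-G1 Rad21 peaks. Of the runs of 9 windows, that on chromosome 5 had 35 late-G1 boundaries and 5 loops, that on chromosome 12 had 28 and 2, and that on chromosome 14 had 21 and 1. The run on chromosome 4 rose at each stage, the run on chromosome 7 stayed near empty, and that on chromosome 12 went from 21 boundaries in early G1 to 11 in mid G1 and 28 in late G1.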

How the data were processed

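CTCF and Rad21 ChIP-seq and in situ Hi-C were analysed, grouped by assay, target and stage from the sample titles. Per the submitters' processing notes, ChIP-seq used MACS2 2.1.0, Bowtie 0.12.7, bedtools 2.27.1 and SAMtools 1.7, Hi-C used HiC-Pro and Bowtie2, and the build was mm9. For the domain, stripe and loop calls, the program was not given in the sources used here. Peak names in the 12 deposited peak lists say that replicates were merged and downsampled. Each peak has a deposited fold enrichment (a ratio), −log10 p, −log10 q and score. Per the file headers, loops carry a contact signal, its expected value and a p-value, and stripes a strength (a ratio). In the horizontal stripe lists the length column holds the short side, so length came from coordinates.

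Windows, overlaps of at least 1 bp, boundary and loop matches within 20 kb and stripe anchor overlaps were computed with pandas 2.3.3, SciPy 1.17.1 and NumPy 2.4.6 under Python 3.11.15, and drawn with Matplotlib 3.10.9. The functions were tested on simulated data against bedtools 2.31.1 and brute force, with 0 mismatches. Peaks were placed by summit, domains and loops by midpoint and stripes by anchor. Capture-C, RNA polymerase II and input samples were not analysed here.

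The windows, lists and named regions were chosen with earlier results of these data known. Regions were named by a rule: the 5 longest runs; the 3 windows with most late-G1 loops, boundaries or Rad21 peaks; the 5 strongest asynchronous CTCF peaks and the 3 strongest found and not found in pro-metaphase; the 3 longest outermost late-G1 domains; the 3 longest late-G1 loops and the 3 of highest ratio; the 3 strongest late-G1 Rad21 peaks without CTCF; and the 2 strongest late-G1 stripes. Alternatives were other summit limits, shifted windows, stricter overlaps, matches and thresholds, and outermost domains alone. No p-value was computed, since the pooled lists hold no replicates.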

Additional observations from a re-analysis of the deposited data

Results flagged for a closer look

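Between ana/telophase and early G1 the number of Rad21 peaks went to 0.653 times in CTCF-poor windows and to 1.11 times in the others, that is, in opposite directions. The difference was not tested, since each list is a single pool. With a −log10 q of at least 5 both went up, to 1.06 and 1.30 times.

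The number of CTCF peaks between the same stages went to 0.902 times in CTCF-poor windows and to 1.03 times in the others. From ana/telophase to late G1 it went to 0.830 and 1.02 times. Neither difference was tested. The windows were chosen for few asynchronous CTCF peaks, and that choice bears on these values.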

How the results depend on the processing

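Values were recomputed under the alternatives named here, not each value under each one, 194 values in all. Of these, 144 kept their side and stayed within 1.5 times (counts) or within the interval (shares and medians), 48 moved and 2 turned. No paired analysis was possible because the pooled lists carry no replicates, and leaving out a replicate could not be run for the same reason. The cause of a change was not tested. Windows shifted by 0.5 Mb, leaving out the last windows, domains placed by 50% of their length, a stricter loop p, stripes of at least 100 kb, summits within 100 bp and wider loop anchors moved none of the values recomputed under them past these bounds. A CTCF fold of at least 5 and the late-G1 CTCF list were applied to the number of windows alone, which became 735 and 712. Nor was any recomputed value moved that far by 2 alternatives chosen after seeing the data: leaving out windows outside the span of the domain lists, or the 10 windows with most ana/telophase CTCF peaks.

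With 50% of both peaks shared, the comparison with other windows turned for CTCF found in pro-metaphase (22.9% against 21.4%) and ana/telophase (85.3% against 85.1%). The share of Rad21 peaks with CTCF became 0%, 34.3%, 80.0% and 79.3% from pro-metaphase to mid G1. With −log10 q of at least 5 it became 78.3%, 96.3%, 88.0% and 87.9% from ana/telophase to late G1, and Rad21 peaks per window became 0 in pro-metaphase, where the share then has no value, and 0.346 in ana/telophase.

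With a limit of 2 summits, Rad21 peaks per window were 0.248, 0.625 and 0.687 from early to late G1, and loops were 0.00998 in pro-metaphase and 0.0818, 0.142 and 0.152 from early to late G1. Stripes were 0.00399 in ana/telophase and 0.0200, 0.0200 and 0.0180 in G1, median domain sizes 230, 230 and 240 kb in G1, and late-G1 boundaries called by ana/telophase 20.7%. With a limit of 6, Rad21 was 0.657 in early G1, loops 0.262, 0.433 and 0.526 and stripes 0.0938, 0.0917 and 0.0928 in G1, domain medians 280 and 300 kb in early and mid G1, and boundaries called by ana/telophase 27.4%.

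Outermost domains alone gave 1.703, 1.63 and 1.63 boundaries per window from early to late G1 and medians of 230 kb in early and 330 kb in late G1. Boundaries matched within 10 or 40 kb gave 18.1% and 31.8% called by ana/telophase. Loops with both anchors in CTCF-poor windows numbered 0.0137 per window in pro-metaphase and 0.104, 0.126 and 0.144 in G1. Leaving out the 10 windows with most late-G1 loops, also chosen after seeing the data, gave 0.0125 in pro-metaphase and 0.108 in early G1.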
